A study of Rattus norvegicus with 8 samples.

Results

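MAP kinase cascade members were described in rat soleus across 3 loading conditions. The members were 8 genes on successive steps of the cascade: the MAP3 kinases Map3k12 and Map3k1, the MAP kinase kinases Map2k1 and Map2k2, and the MAP kinases Mapk3, Mapk8, Mapk9 and Mapk14. All probe sets carrying 1 of these symbols and no other were taken, which gave 20 of 8740 probe sets and 7 of the 8 genes. Mapk3 had no such probe set in the annotation used and is not analysed here. Of the 20 probe sets, 17 passed a filter on mean signal over all arrays (at least 25.8) and entered the test, and 3 did not: 1 each of Map3k1, Mapk8 and Mapk14. The genes were chosen by measured values of these arrays, those of unloaded against control, in which Map3k12 had the largest log2 fold change between unloaded and control soleus of 5244 tested probe sets. For that reason unloaded against control is given for the members as a description with no test, and so are all values of Map3k12. Tests of the other members in walked against control and walked against unloaded share arrays with that comparison and are not independent of the choice.

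In a MAP kinase cascade a MAP3 kinase phosphorylates a MAP kinase kinase, which in turn phosphorylates a MAP kinase, and the MAP kinase acts on transcription factors and other kinases. The ERK branch runs through Map2k1 and Map2k2 and answers mainly to growth factors, and the JNK (Mapk8, Mapk9) and p38 (Mapk14) branches answer mainly to stress. In skeletal muscle, contraction and stretch switch these kinases on by phosphorylation, which transcript arrays do not measure.

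The walked group had 2 arrays, from rats kept off their hindlimbs for 12 h and then walked on a treadmill for 2 h in bouts of 30 min, with cage activity between bouts, over 4 h. The unloaded group had 3 arrays, from rats kept off their hindlimbs for 12 h without walking. The control group had 3 arrays, from rats with 12 h of ordinary cage activity. No group was reloaded without walking or kept unloaded for the added 4 h. Walking, reloading and added time therefore cannot be told apart in walked against unloaded. All rats were female (the labels state neither strain nor age), and each array held RNA pooled from 8 to 10 rats, so the spread reported is between pools. Whole muscle was used, and fewer cells of a type and less RNA per cell cannot be told apart.

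The slow fibre markers expected of soleus were bright on every array: the slow myosin Myh7 had signals of 6832 and 8004 in walked, 5389, 7242 and 6302 in unloaded and 5482, 5146 and 5340 in control pools. Signal is the MAS5 value on a linear scale, brought to a common trimmed mean across arrays. The deposited median signal lay between 37.1 and 42.4 on the 8 arrays. Control pool 3 was less like the arrays of the other groups than control pools 1 and 2 were. Its correlations with those arrays were 0.913 to 0.929, against 0.932 to 0.945 for control pools 1 and 2. Without control pool 3, Map2k2 L14936_at, the member called in walked against control, missed the threshold (limma adjusted p = 0.0704). A probe set was called, or is said to have risen or fallen, where limma's adjusted p was under 0.05. Log2 fold changes are given ± the standard error of the fit. Summed over 7 slow fibre markers, signal was 28770 to 31550 in walked, 22790 to 30700 in unloaded and 21180 to 23290 in control pools. Over 9 fast fibre markers it was 10240 to 11160, 13670 to 15790 and 10610 to 13360. In walked against control 3 slow fibre markers rose and 1 fast fibre marker fell. In unloaded against control 1 slow marker fell, and in walked against unloaded 2 fast markers. Their part in the member signals was not tested.

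Promoter sequences of RefSeq (rat build GRCr8, 250 bases before to 50 after the gene's start) were matched for 6 members. Of these, 3 are shown, Map3k12 because it had the largest difference, and Map2k2 and Mapk14 because most of their probe sets were lower in unloaded and walked than in control soleus. They lie at chr7:135526223-135526522 (minus strand, Map3k12), chr7:9260749-9261048 (minus strand, Map2k2) and chr20:6751109-6751408 (plus strand, Mapk14). Capitals mark TCTCGCGAGA, the longest run in both the Map2k2 and the Mapk14 promoter that equals its own reverse complement.
Map3k12: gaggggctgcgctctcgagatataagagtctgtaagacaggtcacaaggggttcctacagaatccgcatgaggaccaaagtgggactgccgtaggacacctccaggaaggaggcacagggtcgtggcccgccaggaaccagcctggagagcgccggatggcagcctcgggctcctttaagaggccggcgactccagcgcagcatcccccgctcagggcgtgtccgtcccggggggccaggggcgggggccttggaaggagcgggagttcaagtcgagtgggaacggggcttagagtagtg
Map2k2: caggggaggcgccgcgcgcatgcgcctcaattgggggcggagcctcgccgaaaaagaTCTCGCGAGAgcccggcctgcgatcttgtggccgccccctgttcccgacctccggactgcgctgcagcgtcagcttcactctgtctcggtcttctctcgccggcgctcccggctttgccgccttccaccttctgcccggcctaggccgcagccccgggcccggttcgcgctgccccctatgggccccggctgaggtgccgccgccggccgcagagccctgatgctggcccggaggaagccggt
Mapk14: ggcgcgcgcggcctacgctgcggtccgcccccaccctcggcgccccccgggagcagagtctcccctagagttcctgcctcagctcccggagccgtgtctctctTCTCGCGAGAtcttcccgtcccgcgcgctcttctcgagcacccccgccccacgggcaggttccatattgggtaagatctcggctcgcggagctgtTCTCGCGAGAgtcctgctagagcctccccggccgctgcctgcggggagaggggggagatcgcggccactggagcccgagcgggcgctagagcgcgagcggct
Map2k2 held the palindrome at -193 from the start, and Mapk14 at -147 and -52. It stood in 0.373% of 33469 rat promoters of the same length. This motif was picked after the sequences were read, and these matches describe the letters only. Both strands were also searched for the GC box GGGCGG (33.1% of promoters), the CCAAT box CCAAT (37.5%), the TATA box TATAAA (14.2%), the AP-1 element TGANTCA (7.33%) and the cAMP response element TGACGTCA (1.83%). Map3k12 held 1 GC box, and Map2k2 and Mapk14 each held 2 GC boxes and 1 CCAAT box. The letters of the last 3 motifs were not in these 3 windows, and no motif overlapped the palindrome.

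Map3k12, also called DLK, is a MAP3 kinase of the JNK branch that is best known from neurons, where it responds to axon injury. Its single probe set had signals of 99.4 and 149 in walked pools, 199, 213 and 361 in unloaded pools and 10.1, 12.3 and 8.10 in control pools. Every unloaded pool lay above every walked pool, and every walked pool above every control pool. The mean signal was 124 ± 34.8 in walked (SD, n = 2), 257 ± 89.8 in unloaded (n = 3) and 10.2 ± 2.09 in control soleus (n = 3). Its log2 fold changes were 4.63 ± 0.28 (unloaded over control), 3.60 ± 0.32 (walked over control) and -1.03 ± 0.32 (walked over unloaded). These folds share arrays and come from the values that chose the gene, so no test is attached. The probe set passed the filter on mean signal through the unloaded and walked arrays, its control signals were close to the lower limit set on the values (4.10), and a fold against so dim a group is imprecise. Leaving out any 1 array gave 4.36 to 4.79 in unloaded against control and 3.31 to 3.89 in walked against control. Without control pool 3 the values were 4.48 and 3.45.

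Since Map3k12 is known from nerve, markers of Schwann cells and nerve were set beside it. Of 14 markers, 12 had a probe set, and their summed signal was 815 to 829 in walked, 782.5 to 856 in unloaded and 876 to 964 in control pools. The summed nerve signal was lower in every unloaded and walked pool than in every control pool. Pmp22 (243 to 386) and Mag (184 to 243) had the largest signals of this sum on every array, so it mostly follows these genes. The axon markers did not share a direction. The neurofilament light chain Nefl had 8.01 and 17.9 in walked, 6.10, 13.9 and 8.80 in unloaded and 24.7, 16.9 and 28.0 in control pools. The medium chain Nefm had 7.005 and 12.4 in walked, 16.3, 4.20 and 12.3 in unloaded and 4.10, 5.39 and 5.10 in control pools. The heavy chain Nefh had 23.7 and 24.8 in walked, 7.19, 42.3 and 12.8 in unloaded and 8.00, 15.7 and 7.30 in control pools. Nefl was thus mostly lower, and Nefh in walked pools higher, than in control pools, all at low signal. Of other nerve markers, Prph had 34.7 and 22.3 in walked, 46.3, 35.2 and 31.5 in unloaded and 52.4, 52.3 and 49.8 in control pools. Snap25 had 8.11 and 5.91 in walked, 28.6, 5.60 and 10.0 in unloaded and 34.7, 27.6 and 47.5 in control pools. Gap43 and Uchl1 overlapped between unloaded and control pools. Of the 7 nerve markers tested, 0 were called in unloaded against control and 1 fell in walked against unloaded, the myelin protein Prx, with 28.9 and 46.9 in walked, 99.0, 95.6 and 67.6 in unloaded and 49.97, 47.8 and 68.4 in control pools. Of the 12, 5 had a mean signal under the filter and 0 were at the lower limit on every array.

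Some markers of connective tissue, fat and leukocytes were ordered by group as Map3k12 was. The fibroblast proteoglycan Dcn had 2380.0 and 2100.0 in walked, 3500.0, 2533 and 2451 in unloaded and 649.5, 760 and 986.5 in control pools. The fat cell lipid carrier Fabp4 had 199.5 and 152 in walked, 304, 254 and 304 in unloaded and 92.3, 133 and 81.6 in control pools. Pdgfra of the fibroblast list had 92.3 and 114.5 in walked, 135.6, 125.5 and 122.9 in unloaded and 87.4, 87.3 and 87.4 in control pools. The leukocyte marker Cd48 had 98.4 and 107.1 in walked, 156.2, 110.1 and 171.7 in unloaded and 37.7, 62.8 and 67.5 in control pools. Others of the same lists were not so ordered. The fibroblast marker Col1a2 had 1054 and 1089 in walked, 2416, 1987 and 1548 in unloaded and 2245, 1682 and 2778 in control pools. The fat cell marker Cfd had 105 and 59.8 in walked, 133, 100 and 170 in unloaded and 148, 119 and 317 in control pools. The leukocyte marker Cd74 had 235.1 and 251.6 in walked, 265.1, 304.9 and 341.3 in unloaded and 370.1, 354.3 and 422.7 in control pools. Summed signal of all 6 fibroblast markers was 6794 to 6876 in walked, 7367 to 11420 in unloaded and 6262 to 9047 in control pools. The walked sums lay below the unloaded sums, as for Map3k12, and the control sums overlapped both. Sums of 4 of 5 fat cell markers were 1133 to 1477 in walked, 1174 to 1449 in unloaded and 1213 to 1533 in control pools, and all groups overlapped. In unloaded against control 2 of 6 tested fibroblast markers and 1 of 3 tested fat cell markers rose, and 0 fell. In walked against control 1 fibroblast marker rose and 1 fell, and 0 fat cell markers were called. Of 6 tested leukocyte markers, 1 rose and 0 fell in unloaded against control, and 0 rose and 2 fell in walked against control. The part of nerve, connective tissue, fat or leukocytes in the Map3k12 signal was not tested.

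Map3k1, or MEKK1, a MAP3 kinase that feeds the JNK branch, gave probe sets that disagreed. Its brightest (rc_AI102620_at) had signals of 69.5 and 94.9 in walked, 78.2, 72.1 and 55.9 in unloaded and 59.0, 38.6 and 59.3 in control pools. Both walked pools lay above all control pools, while walked and unloaded overlapped. The log2 fold change in walked against control was 0.66 ± 0.27 and missed the threshold (limma adjusted p = 0.162). The second tested probe set (U48596_g_at) had 33.3 and 35.7 in walked, 38.0, 53.5 and 32.4 in unloaded and 63.1, 49.5 and 45.6 in control pools, with the walked pools below all control pools. Its log2 fold change in walked against control was -0.60 ± 0.31 (adjusted p = 0.260). In unloaded against control the same probe sets had 0.41 ± 0.25 and -0.37 ± 0.28. The probe set that was not tested (U48596_at) had 33.8 and 14.9 in walked, 15.9, 19.3 and 27.7 in unloaded and 39.6, 30.7 and 22.5 in control pools, with overlapping groups. No direction can be given for the gene from these values.

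Map2k2, or MEK2, which phosphorylates the ERKs, was the member other than Map3k12 with a call in walked against control. Its probe set L14936_at had signals of 164 and 179 in walked pools, 190, 152 and 203 in unloaded pools and 272, 264 and 277 in control pools. All walked and all unloaded pools lay below all control pools, and walked and unloaded pools overlapped. The mean was 171 ± 11.1 in walked (SD, n = 2), 181 ± 26.6 in unloaded (n = 3) and 271 ± 6.50 in control soleus (n = 3). In walked against control it fell by 0.66 ± 0.17 on the log2 scale (limma adjusted p = 0.0355), lower in 2 of 2 walked pools. The control arrays are those of the comparison that chose the genes, so this test is not independent of the choice. The call was lost when any 1 control or walked pool was left out, with adjusted p-values of 0.0284 to 0.179 over the 8 fits that left out 1 array and 0.0238 to 0.179 over all 17 alternatives. Its log2 fold change in unloaded against control was -0.59 ± 0.15, given without a test.

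The brightest Map2k2 probe set (rc_AA963674_g_at) had signals of 442.5 and 353 in walked, 459.5, 333.0 and 417 in unloaded and 565, 558 and 768 in control pools. Its walked and unloaded pools too lay below every control pool, by -0.66 ± 0.20 in walked against control, which missed the threshold (adjusted p = 0.0620). The third (rc_AA957896_s_at) had -0.28 ± 0.15 in that comparison (adjusted p = 0.283), with 279 and 268 in walked, 259, 286 and 280.0 in unloaded and 318, 308 and 373 in control pools. All 3 probe sets of Map2k2 thus had walked and unloaded arrays below control arrays. When the tested probe sets of a gene were averaged before the fit, Map2k2 had -0.53 ± 0.15 in walked against control (adjusted p = 0.0426).

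Map2k1, or MEK1, the partner of Map2k2 in the ERK branch, was not called on any of its 3 probe sets in walked against control (adjusted p of 0.233 to 0.933) or walked against unloaded. The brightest (L04485mRNA_s_at) had signals of 294 and 339 in walked, 364, 284 and 344 in unloaded and 381, 391 and 415.5 in control pools. Its walked and unloaded pools lay below all control pools, with a log2 fold change of -0.33 ± 0.16 in walked against control. The other 2 probe sets went the other way in that comparison, at 0.28 ± 0.25 (D14591_s_at) and 0.04 ± 0.23 (rc_AI178835_at), and their walked and control pools overlapped. On D14591_s_at both walked pools (183 and 212) lay above the unloaded pools (137, 177 and 160.5), with control pools at 225, 161 and 118, and the log2 fold change in walked against unloaded was 0.33 ± 0.25 (adjusted p = 0.558). On rc_AI178835_at the signals were 62.0 to 95.6 over all arrays.

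Mapk14, the alpha form of p38, had the most probe sets, 6, of which 5 were tested. The brightest (rc_AI137862_s_at) had 414 and 388 in walked, 429, 389 and 420.0 in unloaded and 506, 477 and 430.3 in control pools. The next (U73142_g_at) had 291 and 277 in walked, 309, 275 and 284 in unloaded and 397, 347.5 and 485 in control pools. The probe set rc_AI171630_s_at had 175 and 166 in walked, 197.5, 157 and 218 in unloaded and 295, 242.5 and 258 in control pools. On all 3, every walked and every unloaded pool lay below every control pool. None was called in walked against control, where the log2 fold changes were -0.23 ± 0.14 (adjusted p = 0.353), -0.52 ± 0.17 (adjusted p = 0.0784) and -0.63 ± 0.18 (adjusted p = 0.0516). The last of these was past the threshold without unloaded pool 2 or 3 and with a filter at the 60th percentile of mean signal.

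The dim probe set U73142_at, made to the same sequence entry as U73142_g_at, had a mean signal of 24.8 and was therefore not tested. It had 13.9 and 10.1 in walked, 20.2, 19.2 and 21.2 in unloaded and 39.3, 43.4 and 31.1 in control pools, with no overlap between any pair of groups. With no filter its log2 fold change was -1.66 ± 0.28 in walked against control (limma adjusted p = 0.0419). The remaining tested probe sets of Mapk14 differed from each other: rc_AA924542_s_at had -0.02 ± 0.22 in walked against control, with overlapping groups and a sign that turned under quantile normalization (0.05), and U91847_s_at had -0.61 ± 0.31 (adjusted p = 0.264), with both walked pools below all control pools.

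Among the JNK genes, Mapk9 (JNK2) was measured on 3 tested probe sets and called on 0 of them in either comparison with walked soleus. Its brightest (L27112_s_at) had signals of 45.7 and 62.1 in walked, 51.9, 84.5 and 43.1 in unloaded and 70.5, 72.9 and 47.1 in control pools, and the groups overlapped. The probe set rc_AI231354_g_at had 32.7 and 40.6 in walked, 42.2, 56.8 and 53.4 in unloaded and 54.7, 43.8 and 54.6 in control pools, both walked pools being the lowest of the 8. Its log2 fold change was -0.47 ± 0.27 in walked against unloaded (adjusted p = 0.420) and -0.48 ± 0.27 in walked against control (adjusted p = 0.310). The third, rc_AI231354_at, lay within 39.1 to 49.7 on all arrays. Mapk8 (JNK1) had 1 probe set, not tested, with signals of 4.10 and 9.82 in walked, 4.10, 10.9 and 5.999 in unloaded and 26.1, 9.79 and 12.3 in control pools, where 4.10 is the lower limit set on the values. A further probe set carries both Mapk8 and Mapk10 as symbols and was left out; its signals were 4.10 to 8.09.

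**Figure D1:**
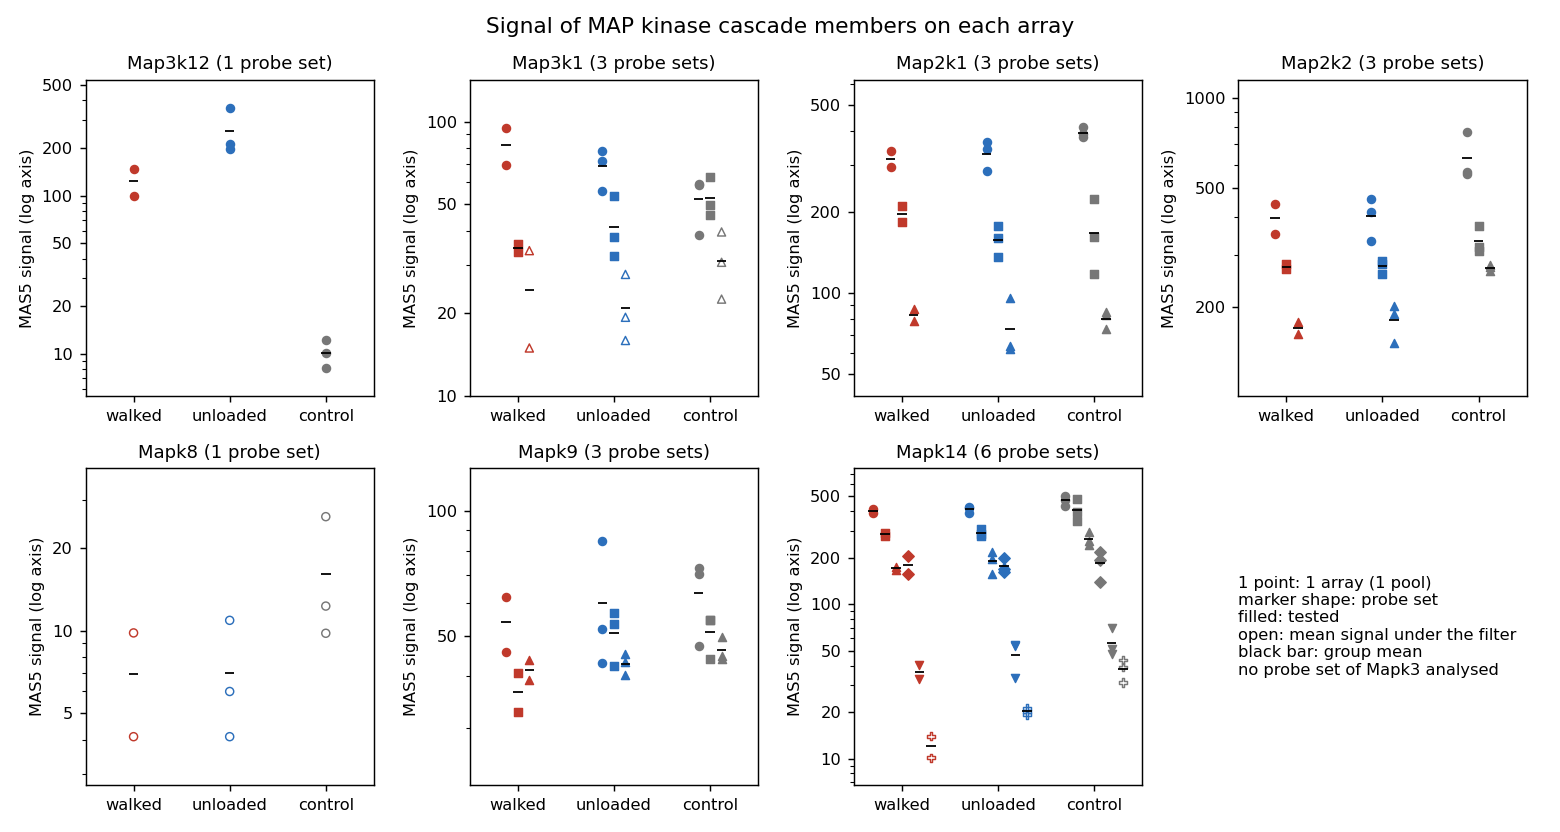
MAS5 signal (log axis) of every member probe set in walked (2), unloaded (3) and control (3) pools, 1 point per array, with the probe sets of a gene side by side filled where tested and open where the mean signal was under the filter, and the group mean as a black bar. Map3k12 lies at 8.10 to 12.3 in control and at 99.4 or more in unloaded and walked pools, and all 3 probe sets of Map2k2 lie lower in walked and unloaded than in control pools.

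Across the members, walked against unloaded had 0 calls among the 16 tested probe sets other than Map3k12, beside 4.2% of all tested probe sets (2.73% higher and 1.47% lower), and 0 of the 16 had an unadjusted p under 0.05 in limma. Their log2 fold changes ranged from -0.47 to 0.33 with a median of -0.05, the same as the median over all tested probe sets (-0.05). Of the 16, 1 had both walked arrays above all unloaded arrays (Map2k1 D14591_s_at) and 1 had them below (Mapk9 rc_AI231354_g_at), beside 13.5% and 21.8% of all tested probe sets. A p that misses the threshold does not show equal levels. The 95% interval of the difference was -0.44 to 0.30 on the log2 scale for Map2k2 (L14936_at) and -0.39 to 0.34 for Mapk14 (U73142_g_at). For the brightest probe set of Map2k1 it was -0.41 to 0.29, and for that of Mapk9 -0.83 to 0.61. On Mapk14 U91847_s_at it was wider than on U73142_g_at, at -1.03 to 0.35. For Map3k1 it was -0.35 to 0.86 (rc_AI102620_at) and -0.91 to 0.45 (U48596_g_at).

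In walked against control, 1 of the same 16 probe sets was called, Map2k2 L14936_at, and 0 were called higher, beside 9.08% of all tested probe sets called (4.61% lower and 4.46% higher). The share among members, 1 of 16, is close to the background. Of the 16, 11 had all walked arrays below all control arrays and 1 had them above, beside 27.6% and 15.5% of all tested probe sets. The 11 were all 3 probe sets of Map2k2, 4 of Mapk14, 2 of Mapk9 and 1 each of Map2k1 and Map3k1. Probe sets of a gene share its RNA and are not independent. The control arrays of these counts are those of the comparison that chose the genes, so the counts are a description of the members. The median log2 fold change of the 16 was -0.30, beside -0.11 over all tested probe sets.

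In unloaded against control, the fit over all probe sets placed 2 of 17 members past its threshold, Map3k12 and Map2k2 L14936_at, where 7.3% of all tested were past it (3.99% higher and 3.32% lower). Results of this comparison chose the genes, so the count is a description and is no test of the members. Of the 16 probe sets other than Map3k12, 15 had a log2 fold change below 0, from -0.64 to 0.41 with a median of -0.23, beside 58.7% below 0 and a median of -0.08 over all tested probe sets. Under quantile normalization 3 of the 15, all within 0.05 of 0, turned above 0 (Map2k1 D14591_s_at, Mapk14 rc_AA924542_s_at and Mapk9 rc_AI231354_g_at). On 7 of the 16 all unloaded arrays lay below all control arrays, beside 16.1% of all tested, and on 0 above, beside 10.2%. The 7 were 3 of Map2k2, 3 of Mapk14 and 1 of Map2k1. This comparison and walked against control share the control arrays.

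**Figure D2:**
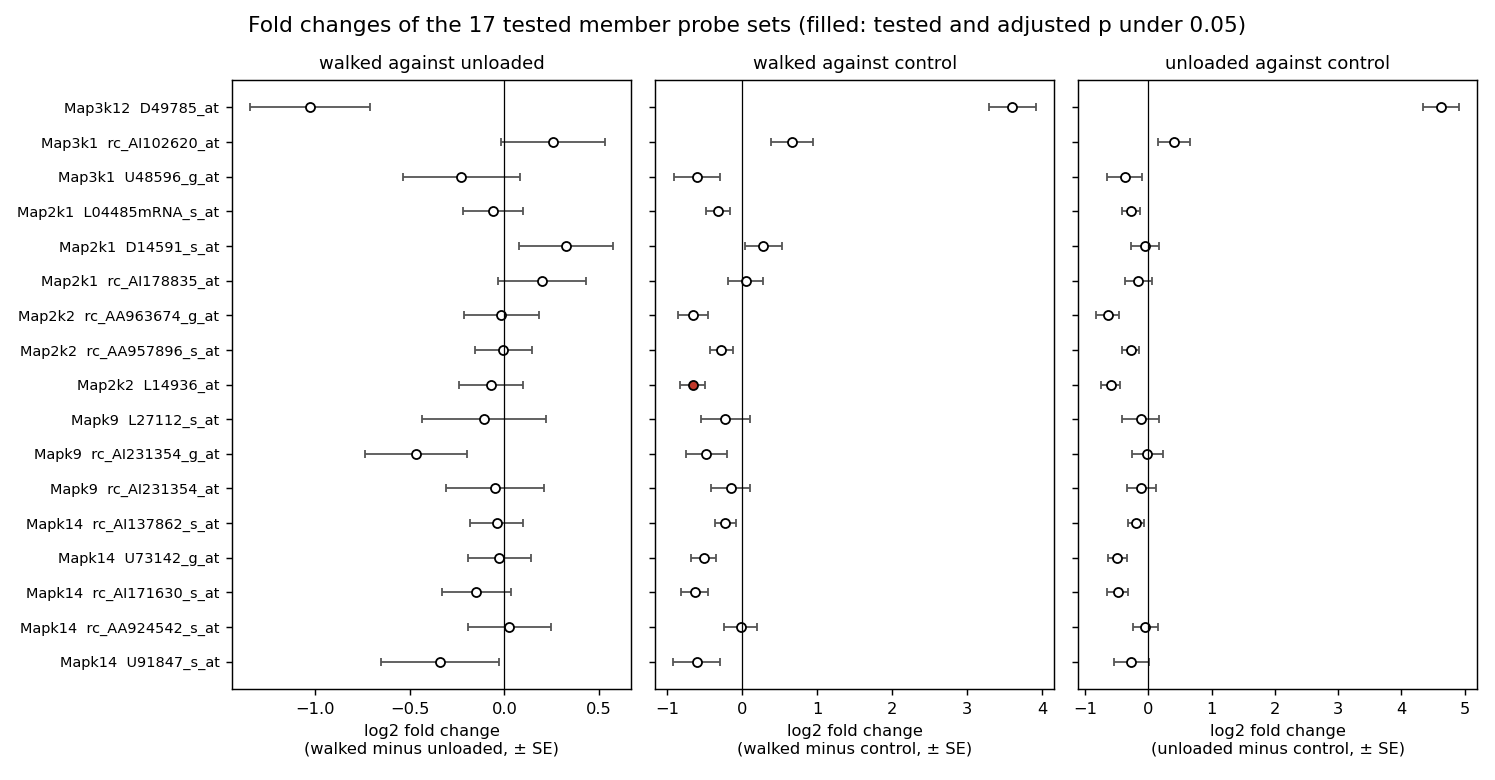
Log2 fold change ± SE of the 17 tested member probe sets in the 3 comparisons, each panel on its own axis. The filled point marks the call among tested values (Map2k2 L14936_at in walked against control); Map3k12 and the panel of unloaded against control are shown without a test. Map3k12 stands at 4.63 and 3.60 against control, and the other probe sets lie between -0.66 and 0.66 in all panels.

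Other genes of the MAP kinase pathways were taken from 8 lists by role, 121 genes in all, of which 58 had a probe set and 44 were tested, each on its brightest probe set. In walked against unloaded the calls were transcription factors that MAP kinases act on, phosphatases and 1 scaffold, with 0 among the kinases. Of the 44, 8 rose and 0 fell (limma adjusted p under 0.05), beside 2.35% and 1.74% of 3154 genes. The lists were drawn up with earlier results of these arrays known, so these counts describe the listed genes and do not set them apart from the rest. Without walked pool 1 or walked pool 2, 5 genes were called.

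Of 12 transcription factor genes, 5 rose in walked against unloaded: the stress factor Atf3 (4.12 ± 0.23), the zinc finger factor Egr1 (1.95 ± 0.19), the AP-1 subunits Fos (1.70 ± 0.30) and Junb (1.33 ± 0.22), and Ddit3 (1.26 ± 0.25), a stress factor named here after its value was seen so that the count is complete. Atf3 averaged 1416 ± 288 in walked (SD, n = 2) and 81.2 ± 14.6 in unloaded soleus (n = 3). The list's median log2 fold change was 0.95, beside -0.05 over all genes tested. Junb rose on its other probe set too, Fos on 1 of 2 others, and Egr1 on 1 of 3 others, the lowest of which had 0.15. Jun, the classic target of JNK, had 0.16 ± 0.21 and was not called (adjusted p = 0.754). Its 3 other probe sets had -0.52 to 0.62, and 0 were called.

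Of 8 phosphatase genes, 2 rose in walked against unloaded, Dusp1 (2.39 ± 0.22), which dephosphorylates p38, JNK and ERK, and Ppm1b (1.10 ± 0.17), a phosphatase of the PP2C family. Dusp1 averaged 559 ± 7.85 in walked and 109 ± 28.9 in unloaded soleus and rose on its 2 other probe sets too. Ppm1b rose on 1 of its 3 other probe sets, and another had -0.16. Of 4 scaffolds and kinase-binding regulators, 1 rose, the adaptor protein Ywhaz of the 14-3-3 family (1.11 ± 0.16), which was also called on 1 of its 2 other probe sets. Of 3 other MAP kinases (Mapk4, Mapk6 and Mapk12), 2 other MAP kinase kinases (Map2k5 and Map2k6), 4 RAF and other MAP3 kinases, 9 upstream adaptors, GTPases and MAP4 kinases, and 2 downstream kinases (Mapkapk2 and Mapkapk3), limma called 0 in walked against unloaded. At an unadjusted p under 0.05 there were 0, 0, 1, 2 and 0 of these.

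In walked against control, 5 of the 44 genes rose and 3 fell, beside 3.74% and 4.63% of all genes. The rises were in Atf3 (2.67 ± 0.23), the small GTPase Cdc42 (1.46 ± 0.25), Ppm1b (0.82 ± 0.17), Egr1 (0.81 ± 0.19) and Ywhaz (0.64 ± 0.16). Other probe sets did not all share these calls: 0 of 2 others were called for Ywhaz (-0.13 and 0.09), 0 of 3 for Ppm1b (-0.18 to 0.36), 1 of 3 for Cdc42 (0.57 to 1.12) and 1 of 3 for Egr1 (0.25 to 1.17). Dusp1 missed the threshold on its brightest probe set (0.75 ± 0.22, adjusted p = 0.0542) and was called on both others (1.08 and 1.17). Dusp6 (-0.60 ± 0.23, limma adjusted p = 0.132) and Junb (0.58 ± 0.22, limma adjusted p = 0.129) missed it too. The other probe set of each was called (-2.30 for Dusp6 and 0.90 for Junb). The falls were in Map4k1 (-1.11 ± 0.30), a kinase upstream of JNK known from blood cells, Pebp1 (-0.71 ± 0.15), an inhibitor of RAF also called RKIP, and Araf (-0.63 ± 0.16), a RAF kinase of the ERK branch. The other probe set of Pebp1 had -0.41 and was not called, and Map4k1 and Araf had no other tested probe set. Araf averaged 122 ± 4.12 in walked (SD, n = 2) and 189 ± 11.1 in control soleus (n = 3). The 8 calls were 5 without control pool 1 or 2, 4 without control pool 3, 2 without walked pool 1 and 1 without walked pool 2.

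In unloaded against control, Cdc42 rose (1.42 ± 0.23) and 4 of the 44 genes fell, beside 3.71% and 2.5% of all genes. The falls were in Dusp1 (-1.65 ± 0.19), Atf3 (-1.46 ± 0.21), Egr1 (-1.14 ± 0.17) and Junb (-0.76 ± 0.20). Of other probe sets, 2 of 2 were called for Dusp1, 1 of 3 for Egr1 (-0.87 to 0.10), 0 of 3 for Cdc42 (0.64 to 0.92) and 0 of 1 for Junb (-0.45). Ywhaz (-0.47 ± 0.15, limma adjusted p = 0.0851) and Fos (-0.77 ± 0.27, limma adjusted p = 0.12) were not called on their brightest probe sets. Of their others, 2 of 2 were called for Ywhaz (-0.81 and -0.73) and 1 of 2 for Fos (-1.86 to -1.02). Leaving out 1 array gave 4 to 8 called genes, the 8 being without unloaded pool 3. The transcription factor list had a median of -0.72, beside -0.08 over all genes. Leukocyte markers had a summed signal of 964 to 1043 in walked, 1215 to 1459 in unloaded and 1238 to 1277 in control pools over 7 of 9 markers, and their part in the lower Map4k1 signal of walked soleus was not tested.

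**Figure D3:**
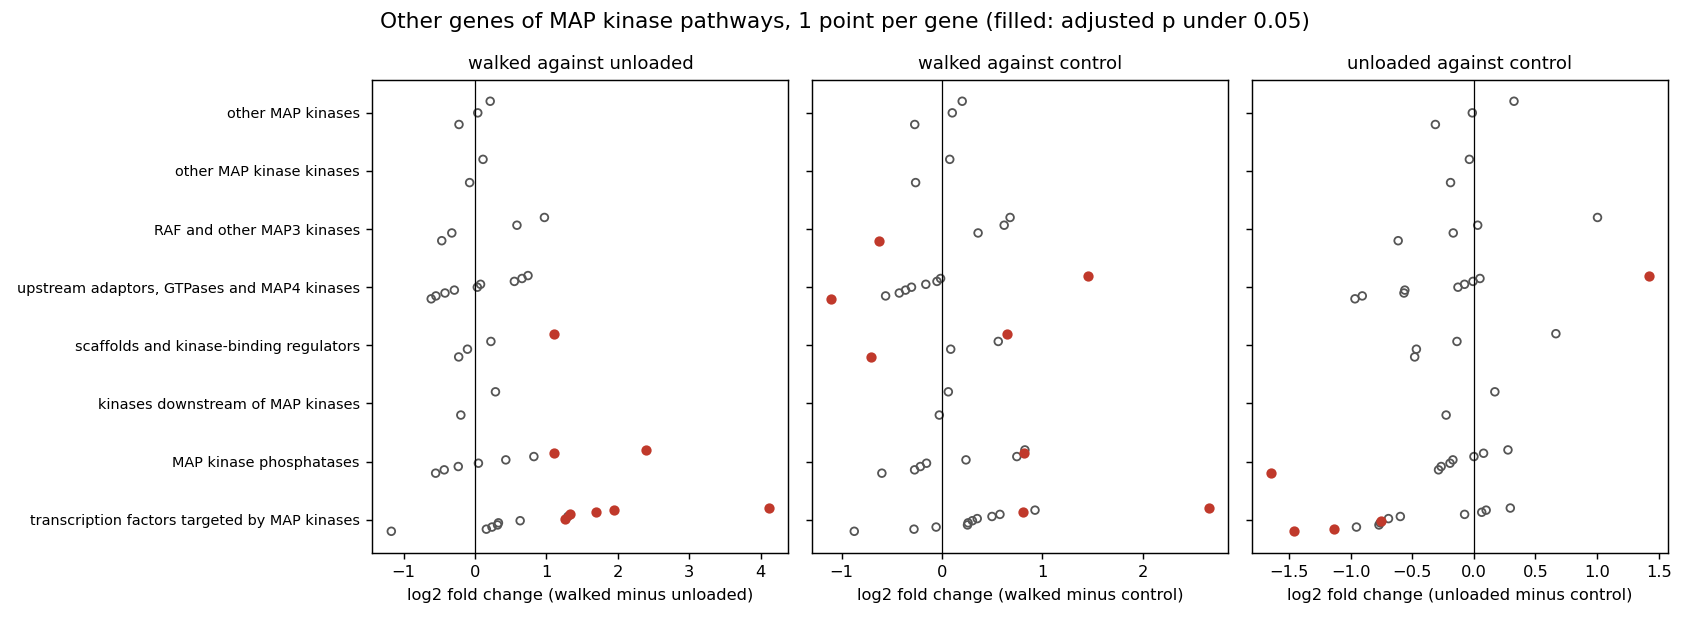
Log2 fold change of 44 tested genes from 8 lists of MAP kinase pathway genes, 1 point per gene on its brightest probe set, filled where limma's adjusted p was under 0.05, each panel on its own axis. In walked against unloaded the filled points, 8 in all, lie above 0 among transcription factors, phosphatases and scaffolds, with 0 among the kinase lists.

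By likeness of log2 signal over the 8 arrays, the genes closest to Map3k12 were the lysosomal protease Ctsl (Pearson r = 0.992), the ribosomal protein Rps6 (0.982), Mmadhc, which handles vitamin B12 (0.978), the complement inhibitor Cd59b (0.978) and the ATP synthase subunit Atp5pd (0.976). Ctsl averaged 692 in walked, 999 in unloaded and 197 in control soleus. The closest to Map2k2 (rc_AA963674_g_at) was the clathrin light chain Cltb (0.979), and the closest to Mapk14 (rc_AI137862_s_at) was Sh3gl1, which acts in endocytosis (0.973). The closest to Map2k1 was Gcn1 (0.980), a regulator of the stress kinase GCN2, to Map3k1 Naa15 (0.942), a subunit of an acetyltransferase, and to Mapk9 Grhpr (0.936), a metabolic reductase. These correlations describe 8 arrays that share the 3 conditions, picked as the highest among the tested probe sets.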

How the data were processed

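RNA of soleus pools was hybridised to 8 one-colour Affymetrix arrays. The deposited values are MAS5 signal intensity per probe set, per the submitters' processing notes, with version and scaling target not given in the sources used here. A common trimmed mean (148.6, dropping 2% at each end) was set on all arrays, signals below the 10th percentile (4.10) were raised to it, log2 was taken, and the 5244 of 8740 probe sets at or above the 40th percentile of mean signal (25.8) were fitted with limma 3.58.1 in R 4.3.3 (3 groups, two-sided moderated test, eBayes with trend, Benjamini-Hochberg over all tested, 5 residual degrees of freedom). With so few pools the smallest exact permutation p for 1 gene is 0.1, so calls rest on spread pooled across genes.

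Symbols came from the platform annotation: 7006 probe sets had 1 symbol, 308 several, and 1426 are unnamed here. Probe sets named _s_at can match several transcripts. The members and lists were chosen with earlier results of these data known. Named genes are the members, at most 4 called genes per list and comparison by smallest p, and the 5 genes of highest correlation with each member's brightest probe set, of which the first is named outside Map3k12. Ddit3, Jun, Dusp6, the neurofilaments, Prx, Pmp22, Mag, Prph, Snap25, Gap43, Uchl1, Dcn, Fabp4, Pdgfra, Cd48, Cd74, Col1a2 and Cfd, and uncalled genes that complete a list's count, were added after their values were seen. Alternatives changed the normalization, floor, filter, variance trend, arrays fitted, pool block and probe set summary. Pool numbers were not taken as pairs. RNA quality was not compared.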

Additional observations from a re-analysis of the deposited data

How the results depend on the processing

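Of 870 recomputed log2 fold changes of members, 799 kept direction and side of the threshold, 21 lost a call, 8 gained one and 42 that were not called in either fit changed sign. Fits that changed only the filter, the trend or the groups fitted leave the fold change itself as it was. So does leaving out an array of the group not compared. Direction could not change in those fits, so the count of 799 is no measure of robustness. Member counts against control include Map3k12 and describe the fits only. Member probe sets called in unloaded against control numbered 2, and 1 after quantile normalization, with no filter, without a variance trend and with only the groups compared. With the filter at the 60th percentile they numbered 3. With the pool number as a replicate block they numbered 2, with Map2k2 rc_AA963674_g_at in place of L14936_at. In walked against control they numbered 2, and 1 after quantile normalization, without a trend or with the pool number as a replicate block, and 4 with the filter at the 60th percentile. Leaving out 1 array gave 1 to 2, 1 to 3 and, in walked against unloaded, 0 to 0. Same-numbered pools did not deviate together (correlations of -0.07 to 0.05), and under the block Map2k2 L14936_at had an adjusted p of 0.0890 in walked against control. The causes were not tested, except that a stricter filter tests fewer probe sets. Over all probe sets, the 383 calls of unloaded against control were 228 with no filter and 243 without a trend, and the 476 of walked against control were 216, 211 and, with the block, 251. Leaving out 1 array gave 230 to 405, 104 to 504 and, against 220 in walked against unloaded, 120 to 261. Genes of the pathway lists called in walked against control were 2 rather than 8 with no filter or no trend and 4 with the block, and in unloaded against control 8 rather than 5 with the stricter filter. Signals near 4.10 limit Mapk8 and the control level of Map3k12.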

Other observations

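The palindrome TCTCGCGAGA, present in the promoters of Map2k2 and Mapk14, was followed over all tested genes with a RefSeq promoter, using the brightest probe set of each. Of 29 genes that held it, 6 were called higher and 0 lower in unloaded against control, beside 92 higher and 60 lower of 2587 genes without it (limma, adjusted p under 0.05). Over all 2616 tested genes with a promoter, 98 were called higher and 60 lower. The median log2 fold change was 0.10 among genes with the palindrome and -0.08 among genes without it. In walked against control 5 of the 29 were called higher and 0 lower, beside 95 and 129 of 2587, with medians of -0.02 and -0.11. In walked against unloaded 0 of the 29 were called by limma, beside 58 higher and 49 lower of 2587, with medians of -0.05 and -0.06. The motif was noticed in these data, and no test was run. The genes that gave it, Map2k2 and Mapk14, were picked as lower against control and hold it themselves. In unloaded against control their brightest probe sets had -0.64 and -0.19, opposite in sign to the calls among genes with the palindrome.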
